A study of Mus musculus with 12 samples.

Results

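The atrophy ubiquitin ligases and FoxO factors described here are 10 of the 10187 genes in a table of triceps RNA, chosen by name: the ubiquitin ligase genes Trim63, Fbxo32, Fbxo40, Fbxo31, Trim54 and Trim55, the forkhead transcription factor genes Foxo1, Foxo3 and Foxo4, and the cell-cycle inhibitor gene Cdkn1a. All 10 were found by symbol. The messenger RNA of the triceps brachii, a forelimb muscle, was sequenced in 12 male C57/BL6 mice, with 3 mice in each of 4 groups that crossed activity and myostatin genotype. Below, the letters I and A stand for inactive and active mice and the letters W and M for wild-type and myostatin-reduced mice, which gives the groups IW, IM, AW and AM. Myostatin-reduced mice carried floxed myostatin genes cut by a tamoxifen-activated Cre recombinase, whose promoter is not given in the sources used here. All 12 mice, the wild-type ones included, ate chow with 0.025% tamoxifen for a total of 6 weeks from 4 months of age. From 6 months of age the active mice lived alone with a running wheel for 12 weeks, while inactive mice had no wheel. The mice of the 2 genotypes sampled had been matched for running, so the genotypes compared do not stand for unselected runners.

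Skeletal muscle breaks down much of its contractile protein through ubiquitin ligases, which attach ubiquitin to a chosen protein so that the proteasome degrades it. Trim63 (MuRF1) and Fbxo32 (atrogin-1, also called MAFbx) are the ligases best known to rise in wasting muscle. FoxO factors are kept out of the nucleus by insulin and Akt signalling, and when that signalling falls they enter it and switch on both ligase genes. Myostatin, a secreted inhibitor of muscle growth, acts through activin receptors and Smad proteins and is known to lower Akt signalling.

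The DNA upstream of 2 of these genes is shown because it holds the letters looked for by name, a FoxO-type site and E-boxes, the latter bound by the MyoD family of muscle factors. RefSeq start sites were matched for 7 of the 10 genes, and Fbxo32, Foxo4 and Trim55 were not among them. The 250 bases before a start were placed by exact match in the NCBIM37 (mm9) genome. The motif TGTTTAC, read on both strands, was present before the start of Trim63 at chr4:133870785-133871034 on the plus strand, 194 bases before the start, and was absent from the other 8 windows of Foxo1, Foxo3, Fbxo31, Fbxo40, Trim54 and Cdkn1a. Over 32851 mouse promoter windows of the same length, 3.17% held it. The motif CANNTG, which reads the same on both strands, was found in 66.2% of those windows with a median of 1 match. Trim63 had 3 such matches, and Fbxo40 had 4 at chr16:36990554-36990803 on the minus strand and 2 before a second, downstream start. No match of the 2 motifs overlapped the other. A match of letters is a description and not evidence of binding. In the lines below the capitals mark TGTTTAC in the Trim63 window and CANNTG in the Fbxo40 window.
Trim63: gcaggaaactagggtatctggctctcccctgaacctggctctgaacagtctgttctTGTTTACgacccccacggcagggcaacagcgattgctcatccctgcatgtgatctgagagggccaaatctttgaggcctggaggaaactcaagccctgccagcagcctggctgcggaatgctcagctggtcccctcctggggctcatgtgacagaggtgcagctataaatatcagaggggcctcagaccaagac
Fbxo40: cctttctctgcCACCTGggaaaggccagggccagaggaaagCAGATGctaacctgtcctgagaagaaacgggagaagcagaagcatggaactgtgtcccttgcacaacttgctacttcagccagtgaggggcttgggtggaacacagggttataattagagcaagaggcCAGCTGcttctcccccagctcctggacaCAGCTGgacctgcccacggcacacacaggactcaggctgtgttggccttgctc

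The estimated depth was 9024000 to 12184700 reads per mouse, inferred from the step between neighbouring low values, and 3 reads correspond to 0.231 to 0.316 normalized reads. The labels were checked on myostatin itself: Mstn was lower by 84.9% in myostatin-reduced mice, with every such mouse at 8.70 to 21.6 normalized reads and every wild-type mouse at 79.7 to 138 (log2 change -2.66, SE 0.16, limma adjusted p = 1.29e-06). All 10 skeletal-muscle markers on the list were present, and their summed level was 159209 to 197831 in AW, 169363 to 223382 in AM, 187006 to 230900 in IW and 247072 to 260892 in IM. The summed level of slow-fibre markers differed widely within 3 of the 4 groups, at 94.3 to 1370 in IW, 151 to 1831 in AW and 117 to 1343 in AM, but was 78.3 to 112 in IM. Endothelial markers were summed at 256 to 266 in IM, 288 to 369 in IW, 292 to 499 in AW and 340 to 562 in AM. Of the fibroblast, macrophage and Schwann-cell markers tested (6, 2 and 3), none was called with activity or by genotype in limma, and of 2 adipocyte markers 1 was higher with activity. In pieces of whole muscle, fewer cells of a type and less RNA per cell cannot be told apart.

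Levels were compared between genes on normalized reads per kilobase of annotated exon, averaged over the 12 mice. Exon lengths were taken from GENCODE M1, while the reads had been counted in RefSeq exons. Trim54 (MuRF3), a muscle RING-finger protein of microtubules and the sarcomere, had the highest level at 269 ± 31.1 (SD, n = 12), followed by Fbxo32 at 181 ± 34.0 and Trim63 at 110.2 ± 15.9. Foxo4 was at 54.6 ± 5.93, above Fbxo40 at 42.9 ± 6.27, Fbxo31 at 40.4 ± 3.37 and Trim55 (MuRF2) at 32.8 ± 3.32. Cdkn1a at 9.40 ± 1.88, Foxo1 at 4.42 ± 0.52 and Foxo3 at 1.21 ± 0.31 were the lowest. This order held for each pair of neighbours in 12 of 12 mice, except that Fbxo40 exceeded Fbxo31 in 9 of 12 and Fbxo31 exceeded Trim55 in 11 of 12. The ranges over mice were apart for Trim63 and Foxo4, Trim55 and Cdkn1a, and Foxo1 and Foxo3, and overlapped for the other neighbours. Among Foxo1, Foxo3 and Foxo4, Foxo4 thus had the most message per length, and its range of 45.3 to 62.8 lay above the 3.70 to 5.70 of Foxo1.

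**Figure D1:**
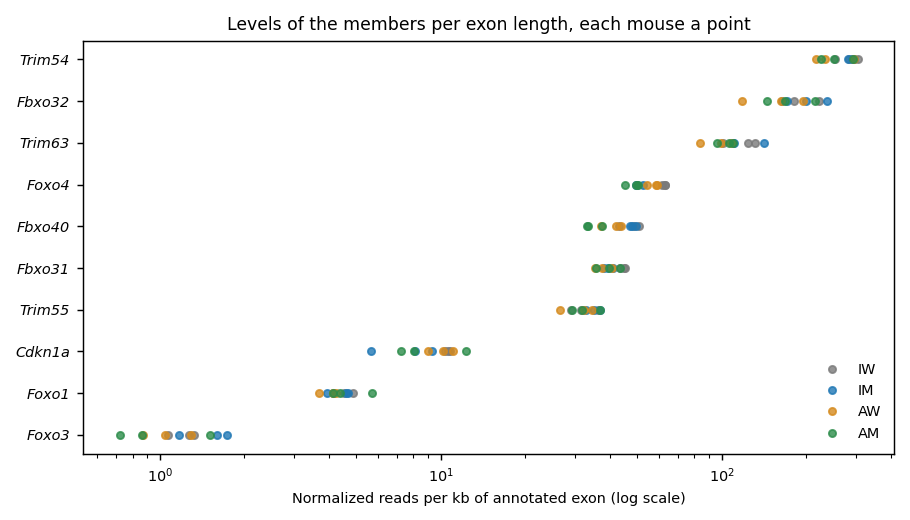
Level of each of the 10 genes in normalized reads per kilobase of annotated exon (horizontal log axis), with 1 point per mouse coloured by group. Trim54, Fbxo32 and Trim63 sit highest, and Foxo1 and Foxo3 lowest, in all 12 mice.

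Foxo3, with a mean of 8.70 normalized reads, fell below the filter of 10 applied before testing, so 9 of the 10 genes were tested among 7247 genes. The question of the first comparison was whether activity went with a change in these genes. A move to single cages is reported only for the active mice, so wheel running and single housing cannot be told apart here. With activity, 1 of the 9 was called at an adjusted p under 0.05, the muscle F-box gene Fbxo40, and it was lower. The background over all tested genes was 14.5% called, and 6.51% called lower, so the share of the 9 genes called (11.1%) is near what any genes gave. Of the 9 genes, 8 had a log2 change below 0, against 55.5% of all genes, and their median change was -0.12 against -0.02 over all genes.

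Fbxo40 encodes an F-box protein of skeletal muscle known to direct insulin receptor substrate 1 to degradation. The gene lies at chr16:36963546-36990553 on the minus strand. Its normalized reads were 270.0, 280 and 237 in IW, 259.8, 274 and 264 in IM, 241, 232 and 205 in AW, and 207, 184 and 184 in AM. Every active myostatin-reduced mouse was thus below every inactive one, which 15.2% of all genes also showed, whereas in wild-type mice the highest active mouse (241) overlapped the lowest inactive mouse (237). Over both genotypes the mean was 264 in inactive and 209 in active mice, a difference of -21.0% (log2 change -0.34, SE 0.06, 95% interval -0.47 to -0.22, limma adjusted p = 0.00312). Within myostatin-reduced mice the difference was -28.0% (log2 change -0.47, limma adjusted p = 0.00864), where 7.84% of all genes were called. Within wild-type mice it was -13.8% (log2 change -0.21, adjusted p = 0.240), where 0.0276% of all genes were called. The difference between these 2 changes was -0.26 on the log2 scale (95% interval -0.51 to -0.007, unadjusted p = 0.0447, limma adjusted p = 0.890) and was not called, so Fbxo40 was not shown to respond differently by genotype.

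Among the skeletal-muscle markers 3 of 10 were called lower with activity, as Fbxo40 was, and 10 of 10 had a log2 change below 0, with a median of -0.18. Among the endothelial markers 6 of 7 were called higher, with a median of 0.49. Slow-fibre markers were above 0 in 11 of 11, with a median of 1.80 and 1 called higher, the calsequestrin gene Casq2 (1.34, limma adjusted p = 0.00306). With a skeletal-muscle marker score as a covariate, an alternative added after the data were seen, the change of Fbxo40 was -0.31 and no longer called (limma adjusted p = 0.0983), and with it 14 genes in all were called. In myostatin-reduced mice alone the change of Fbxo40 was then -0.44 and also not called (adjusted p = 0.0860). Adding a slow-fibre score to the fit instead gave -0.32 (adjusted p = 0.0161). The skeletal-muscle list holds the fast-fibre genes Myh4, Tnnt3, Tnni2, Tnnc2, Pvalb, Mylpf and Actn3. Its score had the opposite sign to the slow-fibre score in every mouse except IW mouse 3 and AW mouse 1. The skeletal-muscle score therefore does not stand for muscle content apart from fibre type.

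Trim63, the muscle RING-finger ligase of thick-filament proteins, is at chr4:133871035-133885544, and the FoxO-type letters shown above lie upstream of it. Its normalized reads were 287, 352 and 374 in IW, 312, 403 and 314 in IM, 308, 282 and 238 in AW, and 303, 273 and 312 in AM. The mean was 286 in active and 340.3 in inactive mice, but the groups overlapped within both genotypes. The log2 change of -0.25 (95% interval -0.44 to -0.05) had an adjusted p of 0.0857 in limma and was not called. The call depended on single mice: without IW mouse 1 the adjusted p was 0.0368, and without AW mouse 1 it was 0.0440. For Trim63, adding the slow-fibre score to the fit gave -0.15 (adjusted p = 0.386) and adding the skeletal-muscle score gave -0.06 (adjusted p = 0.821).

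Fbxo32, the F-box ligase known to act on MyoD and a translation initiation factor, is at chr15:58011634-58046433 on the minus strand. Its normalized reads were 445, 494 and 607 in IW, 542, 645 and 464 in IM, 529, 443 and 322 in AW, and 584, 456 and 394 in AM. Highest and lowest mouse differed by 2.01-fold, and every pair of groups overlapped. Active mice averaged 455 and inactive mice 533 normalized reads (-14.7%, log2 change -0.24, 95% interval -0.54 to 0.05, limma adjusted p = 0.248). The change of Fbxo32 was -0.14 without AW mouse 3 and -0.15 with the skeletal-muscle score in the fit, and it was not called in any fit that left out a mouse. The spread between mice of a group was 19.6% of the mean, against 1.36% from counting.

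**Figure D2:**
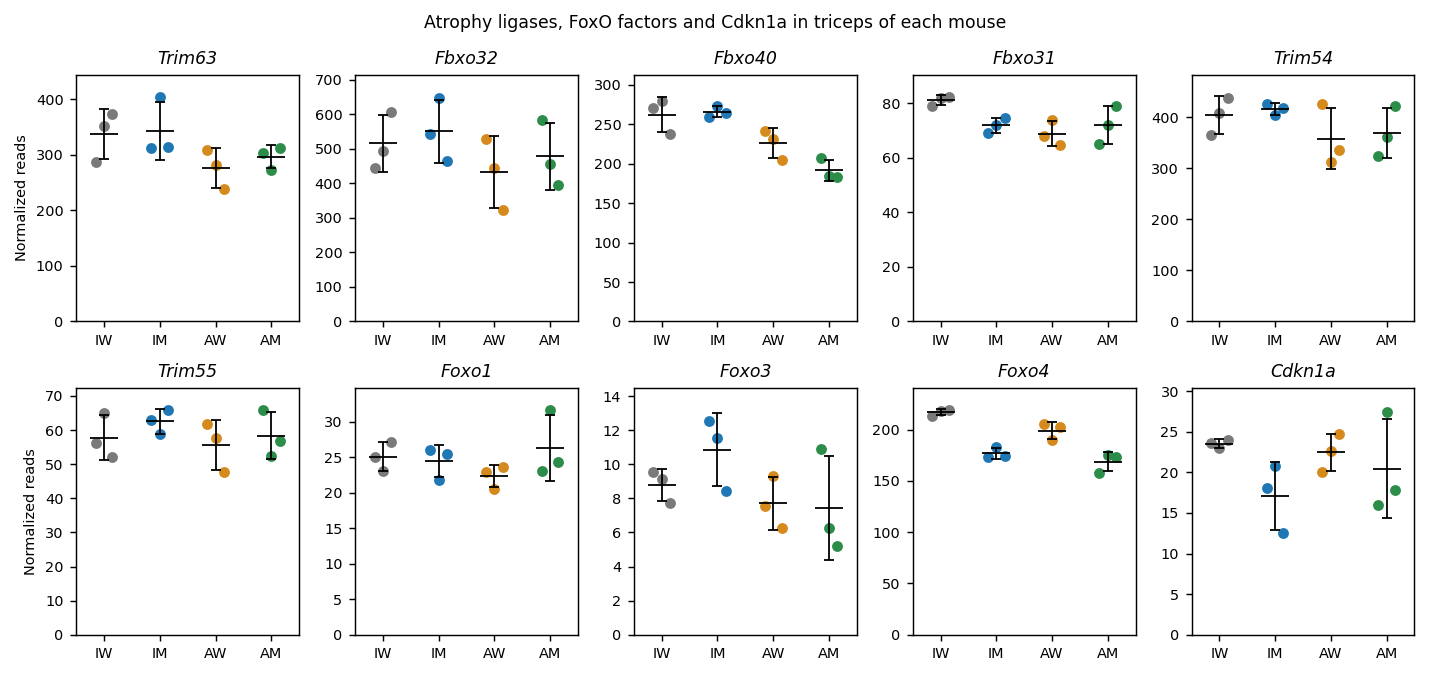
Normalized reads (vertical axis from 0) of the 10 genes in the 12 mice by group, each point a mouse, with the mean as a horizontal bar and error bars of 1 SD (n = 3). Foxo4 is lower in both myostatin-reduced groups than in both wild-type groups, and Fbxo40 is lowest in AM.

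No other ligase gene was called with activity. Fbxo31, an F-box protein known to target cyclin D1, gave 79.0, 82.0 and 82.4 normalized reads in IW, 69.3, 71.9 and 74.6 in IM, 68.0, 73.9 and 64.7 in AW, and 65.2, 72.0 and 79.0 in AM. The IW mice were above every IM mouse and every AW mouse, while AM spanned most of that range. Without overlap, 12.7% of all genes were lower in IM than in IW, among them 3 of the 9 (Fbxo31, Foxo4 and Cdkn1a), and 8.38% were lower in AW than in IW, among them 2 of the 9 (Fbxo31 and Foxo4). Its change in wild-type mice was -0.24 (unadjusted p = 0.00961, limma adjusted p = 0.178), its change over both genotypes was -0.12 (adjusted p = 0.166) and its interaction was 0.23 (adjusted p = 0.890), none of them called. Trim54 gave 364, 409 and 438 normalized reads in IW, 426, 404 and 418 in IM, 425.5, 312 and 335 in AW, and 324, 361 and 422 in AM. Its change with activity was -0.18 (adjusted p = 0.167), -0.25 (adjusted p = 0.0305) without AW mouse 1, and -0.04 with the slow-fibre score in the fit. Trim55, the muscle RING-finger relative that binds titin, ranged from 47.6 to 65.8 normalized reads and its change with activity was -0.08 (95% interval -0.25 to 0.10, adjusted p = 0.538).

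The FoxO genes and Cdkn1a were not called with activity. Foxo1 ranged from 20.5 to 31.7 normalized reads over the 12 mice, with means of 24.8 in inactive and 24.3 in active mice, and its change was -0.03 (95% interval -0.21 to 0.15, limma adjusted p = 0.812). Foxo4 changed by -0.10 (adjusted p = 0.153) and Cdkn1a by 0.08 (adjusted p = 0.706). Foxo3 was measured from an estimated 54 to 130 reads per mouse, and its normalized reads were 9.53, 9.13 and 7.72 in IW, 12.5, 11.6 and 8.45 in IM, 7.53, 9.34 and 6.27 in AW, and 10.9, 6.24 and 5.19 in AM. In a limma fit without the filter its change with activity was -0.35 (SE 0.16, adjusted p = 0.163), with overlap within both genotypes.

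The second comparison asked what lowering myostatin went with. By genotype, 1 of the 9 genes was called, Foxo4, and it was lower. The background was 5.78% of all genes called and 2.21% called lower, which makes the share of 11.1% a matter of a single gene. Changes below 0 were found in 4 of the 9 genes, against 51.7% of all genes, with a median of 0.05 against -0.005 over all genes.

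Foxo4, which had the most message per exon length among Foxo1, Foxo3 and Foxo4, is on chrX:98449867-98456212. Its normalized reads were 214, 218 and 219 in IW, 205, 189 and 203 in AW, 173, 183 and 174 in IM, and 158, 175 and 173 in AM. All 6 myostatin-reduced mice (158 to 183) lay below all 6 wild-type mice (189 to 219). Over all genes, 2.55% were lower in myostatin-reduced mice without overlap within both activity levels. The difference was -16.9% (log2 change -0.27, SE 0.04, 95% interval -0.36 to -0.17, limma adjusted p = 0.00604). In inactive mice it was -18.4% (log2 change -0.29, adjusted p = 0.0345), where 2.51% of all genes were called. This call for Foxo4 in inactive mice was lost with the replicate number as a block (adjusted p = 0.0544) and without a mean trend (adjusted p = 0.0503). In active mice it was -15.3% (log2 change -0.24, adjusted p = 0.185), where 0.207% of all genes were called. The interaction was 0.05 (95% interval -0.13 to 0.24, adjusted p = 0.929), so the size of the difference was not shown to depend on activity. Foxo4 also had the smallest spread within groups of the 10 genes, 3.88% of the mean against 2.19% from counting. By genotype, 1 of 10 skeletal-muscle markers was called higher (10 of 10 above 0, median 0.19), and 11 of 11 slow-fibre markers were below 0 (none called, 1 at an unadjusted p under 0.05, median -1.30). Foxo4 remained called with the slow-fibre score in the fit (-0.28, limma adjusted p = 0.00612) and with the skeletal-muscle score (-0.28, adjusted p = 0.0263). With the latter, the change in inactive mice alone was -0.31 and not called (adjusted p = 0.0688), and it was also not called without any single IW or IM mouse (adjusted p = 0.0607 to 0.13).

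Cdkn1a, which holds cells out of the cell cycle and is a known FoxO and p53 target, gave 23.6, 23.0 and 24.0 normalized reads in IW, 18.0, 20.7 and 12.6 in IM, 20.1, 22.6 and 24.7 in AW, and 16.0, 27.4 and 17.9 in AM. The 3 IM mice were below the 3 IW mice, but the highest value of all was an AM mouse (27.4). The genotype change was -0.31 (95% interval -0.60 to -0.02, unadjusted p = 0.0357, limma adjusted p = 0.190) and was not called. Without AM mouse 2 the change of Cdkn1a was -0.42 with an adjusted p of 0.0436, and with the skeletal-muscle score in the fit it was -0.07 with an adjusted p of 0.847.

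Trim63 and Fbxo32 were not called by genotype. The level of Trim63 averaged 307 in wild-type and 319 in myostatin-reduced mice (log2 change 0.06, 95% interval -0.13 to 0.26, limma adjusted p = 0.727). Fbxo32 had means of 473 and 514 (log2 change 0.13, 95% interval -0.17 to 0.42, adjusted p = 0.630). The intervals leave room for changes of either sign in both genes. Fbxo40 (-0.11), Fbxo31 (-0.05), Trim54 (0.05), Trim55 (0.09), Foxo1 (0.09) and, without the filter, Foxo3 (0.09) had log2 changes with adjusted p from 0.306 to 0.813.

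No gene of the 9 and none of the 7247 tested was called for an activity-by-genotype interaction in limma, where 297 genes (4.10%) had an unadjusted p under 0.05. Among the 9, Fbxo40 was the 1 gene under that unadjusted value. The intervals were wide for the ligases of wasting muscle, with an interaction of 0.09 for Trim63 (95% interval -0.30 to 0.48) and 0.07 for Fbxo32 (95% interval -0.52 to 0.65).

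**Figure D3:**
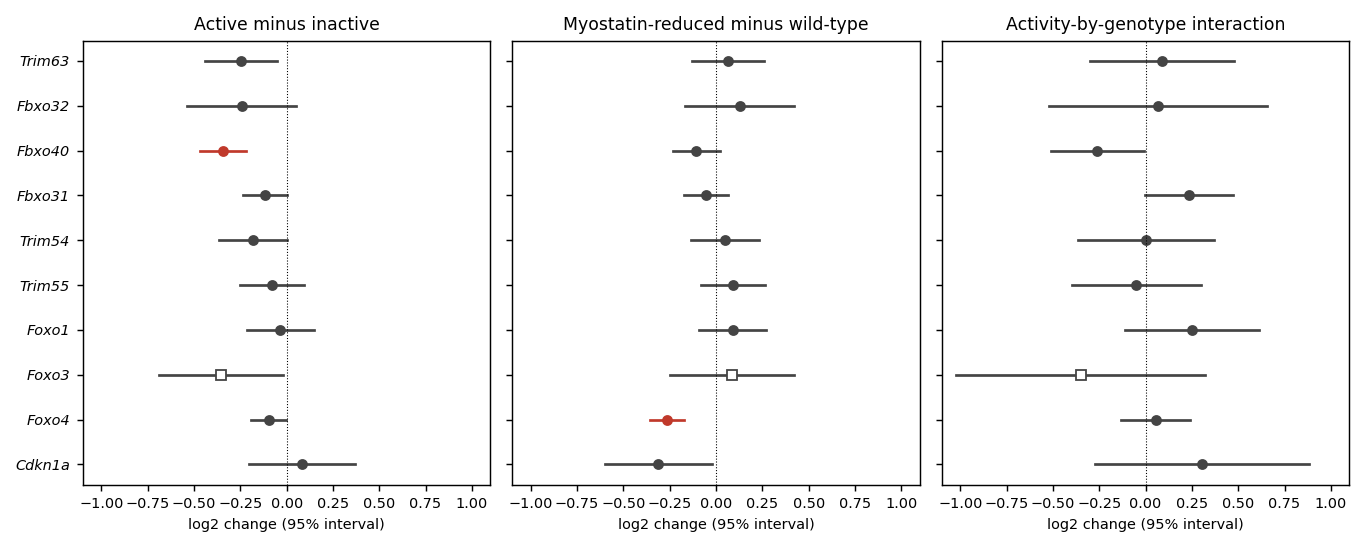
Log2 change (horizontal axis) of each gene with its 95% interval for active minus inactive mice, myostatin-reduced minus wild-type mice and the interaction, from limma. Red points mark the 2 calls, Fbxo40 with activity (-0.34) and Foxo4 by genotype (-0.27), and the open square marks Foxo3, taken from the fit without the filter.

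Mice were then compared one by one for whether those with more FoxO message had more ligase message, over 7 pairs of genes. Trim63 and Fbxo32 were correlated over the 12 mice (Pearson r = 0.801, permutation p = 0.00213, adjusted p = 0.0149; Spearman rho = 0.664, permutation p = 0.0213, adjusted p = 0.149). Without AW mouse 3 and IM mouse 2, the mice farthest from the median of Trim63, r was 0.513 (n = 10, permutation p = 0.13), so the relation did not pass the test without those 2 mice. On deviations from the group means r was 0.732 (permutation p = 0.00852, adjusted p = 0.0596), and 0.599 (n = 10, permutation p = 0.0709) without IW mouse 1 and AW mouse 3. The permutation treated deviations as free values although the group means had been removed, so p-values on deviations are too small. Foxo3 and Fbxo32 had r = 0.651 (permutation p = 0.0217, adjusted p = 0.0761) and rho = 0.559 (permutation p = 0.0633, adjusted p = 0.222), and r was 0.604 (permutation p = 0.0613) without AM mouse 3 and IM mouse 1. On deviations from the group means this pair had r = 0.581 (permutation p = 0.0472, adjusted p = 0.165), and 0.358 (n = 10, permutation p = 0.305) without AM mice 1 and 3. Foxo3 and Trim63 had r = 0.400 (permutation p = 0.198, adjusted p = 0.462), and 0.117 on deviations (permutation p = 0.717). The 4 pairs with Foxo1 or Foxo4 had r from -0.13 to 0.12 with permutation p adjusted to 0.903 or more. On deviations from the group means these 4 pairs had r from -0.47 (Foxo1 and Trim63, permutation p = 0.123, adjusted p = 0.287) to 0.23 (Foxo4 and Trim63, permutation p = 0.465, adjusted p = 0.651), none of which passed. Without AM mouse 1 and AW mouse 2 the latter was 0.54 (n = 10, permutation p = 0.111).

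The genes most like each ligase over the 12 mice were taken from 2555 tested genes with a mean of at least 50 normalized reads, as a description. For Trim63 these were Flcn (folliculin, a regulator of nutrient signalling) at r = 0.912, Sgms1 (a sphingomyelin synthase) at 0.864 and Bicd2 (a dynein adaptor) at 0.847. For Fbxo32 they were Tsc22d3 (GILZ, a glucocorticoid-induced gene) at 0.809, Trim63 at 0.801 and Clec16a (a regulator of mitophagy) at 0.782. Of these, Bicd2 (log2 change -0.17, limma adjusted p = 0.0384) and Tsc22d3 (-0.34, adjusted p = 0.0421) fell with activity, where 14.5% of all genes were called. Both were picked for following a ligase over the same mice, so their falls are not independent of the ligase values.

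Trim54 was compared with the slow-fibre score, the mean log2 deviation of 11 slow-fibre genes. The score fell into clusters, with 6 mice between -2.23 and -1.02, 5 between 1.09 and 2.49, and IW mouse 3 at 0.09, so no coefficient pooled over the raw scores is given. The planned test of that pooled relation, 1 of 10 run, passed for Pearson (adjusted permutation p = 0.0138) but not for Spearman (adjusted permutation p = 0.0698). On deviations from the group means Trim54 had r = -0.803 (permutation p = 0.00167, adjusted p = 0.0167) and rho = -0.811 (permutation p = 0.00206, adjusted p = 0.0206), and r was -0.573 (n = 10, permutation p = 0.0803) without AW mouse 1 and AM mouse 3. The permutation ignored that the group means had been removed, so these p-values are too small and the pass is not established. Trim54 ranged from 404 to 438 normalized reads in IW mice 2 and 3, the IM mice, AW mouse 1 and AM mouse 3, all with scores up to 0.09. It ranged from 312 to 364 in IW mouse 1, AW mice 2 and 3 and AM mice 1 and 2, whose scores were above 1. None of the other 9 genes passed the test with the score, pooled or on deviations. Pooled, Trim63 had an adjusted permutation p of 0.0828 for Pearson and, as Trim54 did, 0.0698 for Spearman. On deviations Trim63 had r = -0.540 and Trim55 r = -0.511 (adjusted permutation p = 0.309 for each). The relation was thus not shown to be particular to Trim54.

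**Figure D4:**
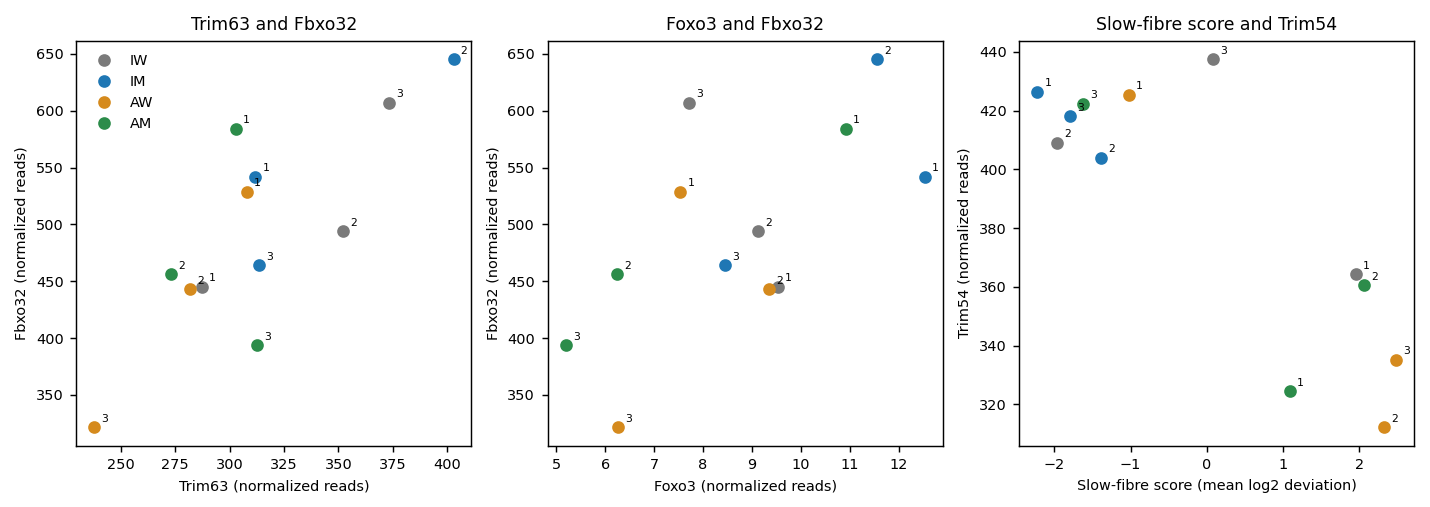
Values of the 12 mice, coloured by group and numbered within it, for Trim63 and Fbxo32 (normalized reads), Foxo3 and Fbxo32 (normalized reads), and the slow-fibre score (mean log2 deviation) and Trim54 (normalized reads). AW mouse 3 and IM mouse 2 lie at the opposite ends of the first panel, and in the last panel Trim54 is 312 to 364 in the 5 mice with scores above 1.

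The wider pathway was read from lists given by name, each tested in the same fit. Of 33 other ligases and ubiquitin genes, 31 were tested and none was called with activity, where 14.5% of all genes were. An unadjusted p under 0.05 was found for 7 of the 31, against 30.2% of all genes, and 24 changes were below 0 (median -0.09 against -0.02 over all genes). By genotype 1 of the 31 was called, Fbxo9, an F-box gene, which was lower (-0.21, limma adjusted p = 0.0474), a share of 3.23% against 5.78% of all genes.

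Of 25 FoxO target genes, 23 were tested, and with activity 2 were called higher and 2 lower (17.4% in all, against 14.5% of all genes, with a median change of -0.03). Sod2, the mitochondrial superoxide dismutase, rose by 0.31 on the log2 scale (limma adjusted p = 0.00785). The other gene called higher was Ctsl, the cathepsin L gene (0.24, adjusted p = 0.00530), named outside the rule of largest changes. Irs2, an insulin receptor substrate, fell by 0.61 (adjusted p = 0.0243) and Txnip, a thioredoxin inhibitor induced by glucose, fell by 0.31 (adjusted p = 0.0217). By genotype 2 were called higher and none lower (8.70%, against 5.78% of all genes, with a median of -0.01). Gadd45a, a stress gene that also stands among the Cdkn1a neighbours, was higher by 0.53 (adjusted p = 0.00975), with group means of 12.1 in IW, 18.5 in IM, 12.3 in AW and 17.6 in AM.

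Of 25 genes upstream of FoxO, 23 were tested, 3 were called lower with activity and none higher (3 of 23, against 14.5% of all genes called). Changes below 0 made up 82.6% of the 23, against 55.5% of all genes, with a median of -0.10. The 3 called were Crebbp (-0.43, limma adjusted p = 0.00179) and Ep300 (-0.24, adjusted p = 0.0272), which acetylate FoxO proteins and histones, and the insulin receptor gene Insr (-0.19, adjusted p = 0.0489). By genotype 2 of the 23 were called (8.70%, against 5.78% of all genes), both lower. One of them was Mstn itself, whose call the design fixed, which leaves 1 gene besides it. That share is therefore not read against the background. Of 16 glucocorticoid response genes, 12 were tested, and 3 were called lower with activity (25.0%, against 14.5% of all genes, with a median of -0.24): Tsc22d3, the transcription factor gene Klf9 (-0.25, adjusted p = 0.0272) and the receptor-tyrosine-kinase inhibitor gene Errfi1 (-0.29, adjusted p = 0.0446). Fkbp5, an immunophilin gene of the same list, named after its values were seen, was called higher with activity in myostatin-reduced mice (0.46, limma adjusted p = 0.0132), was -0.10 in wild-type mice (adjusted p = 0.682) and had an interaction that was not called (0.55, unadjusted p = 0.000917, adjusted p = 0.890). By genotype 1 of the 12 was called (8.33%, against 5.78% of all genes), Glul, the glutamine synthetase gene, which was higher by 0.65 (adjusted p = 0.00263), with means of 141 in IW and 155 in AW against 239.8 in IM and 228 in AM. Of 15 cell-cycle and p53 neighbours of Cdkn1a, 10 were tested and none was called with activity (14.5% of all genes), with 1 at an unadjusted p under 0.05 (30.2% of all genes). By genotype 2 of the 10 were called, against 5.78% of all genes: Gadd45a was higher and Cdkn1b, a related cell-cycle inhibitor gene, was lower (-0.30, adjusted p = 0.0230). In all 5 lists the interaction gave no call.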

How the data were processed

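Polyadenylated RNA of 12 triceps samples was sequenced by the authors as single-end reads, mapped with CASAVA (version not given in the sources used here) to mm9 and counted in RefSeq exons, summed to genes. Whether counting used strand is not given. The deposited values are signal: read counts per gene put by the authors on a common scale with equal trimmed means (highest and lowest 5th percentiles left out), not divided by length. Whole reads could be recovered for 90.2% to 92.8% of values under 5 but for 72.3% to 74.8% of those between 20 and 50 (tolerance 0.1 read), so no count test was run.

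The log2 of value plus 1 was fitted with limma 3.58.1 (R 4.3.3) as 4 group means, with empirical Bayes and a mean trend, for 7247 genes with a mean of at least 10. Tests were two-sided, and p-values were adjusted by Benjamini-Hochberg over all genes tested, with a call at 0.05. Fold changes on this scale understate changes of low genes. Intervals cover 95%. Correlations used permutation with 100000 resamples (scipy 1.17.1). Deviations were permuted freely over all mice, which makes their p-values too small. Counting errors and floors cover counting error only. The script was tested on simulated data.

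Groups came from the sample titles. The members and lists were chosen with earlier results of these data known. All members are named, with Mstn, up to 4 called genes of largest change per list and the 3 genes most like Trim63 and Fbxo32. Ctsl, Fkbp5 and the marker gene Casq2 are named besides these. Positions are from GENCODE M1 on NCBIM37, and promoter sequences are from RefSeq. Mice with the same replicate number correlated at -0.60 to 0.48 in their deviations over 18 pairs, 9 over 0.1, and nothing in the labels ties a number to a shared litter or day. Only between IM and AM were all 3 pairs over 0.1 (0.17 to 0.32), and there Fbxo40 stayed called with the replicate block (adjusted p = 0.0171). The numbers were otherwise not taken to pair mice. Other scalings, pseudocounts, filters, sample weights, covariates and leaving out each mouse were tried.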

Additional observations from a re-analysis of the deposited data

How the results depend on the processing

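Foxo4 was called lower by genotype in all 11 alternative settings and in all 12 fits that left out a mouse (adjusted p = 0.00599 to 0.0228 in the latter). Fbxo40 was called lower with activity in all 12 such fits (0.00186 to 0.0113) and in all settings except the skeletal-muscle score, which gave 0 members called with activity, 0 with activity in myostatin-reduced mice (Fbxo40 -0.44, adjusted p = 0.0860), 0 by genotype in inactive mice, and 14 genes with activity and 135 by genotype, against 1051 and 419. Foxo4 in inactive mice was not called with the replicate block (0 members, adjusted p = 0.0544) or without a trend (0 members, 0.0503), nor in 7 of the 12 fits, namely without any one IW or IM mouse or AW mouse 3 (0.0514 to 0.13), so these counts ranged from 0 to 1. The replicate block changed no other call of a member, and calls of the list genes were not compared under it. Sample weights gave 3 members (Trim63, adjusted p = 0.0385, and Trim54, 0.0453, added) and 1740 genes with activity, the slow-fibre score 401 genes, and a minimum mean of 50 gave 272 genes by genotype. Leaving out 1 mouse gave 1 to 3 members and 552 to 1485 genes with activity, 1 to 2 members and 180 to 579 genes by genotype, and 0 members and 0 to 1 genes for the interaction. On deviations from the group means, 0 of the 7 pairs passed, against 1.

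No change that turned sign had been called. With the slow-fibre score, these were Trim55 (0.0040) and Cdkn1a (-0.032) with activity, Trim63 (-0.0093) and Trim54 (-0.052) by genotype, and Fbxo40 by genotype in inactive mice (-0.0022). With the skeletal-muscle score, they were Trim54 (0.052), Trim55 (0.060) and Cdkn1a (-0.20) with activity, Trim63 (0.0034) with activity in myostatin-reduced mice, Trim63 (-0.090), Trim54 (-0.15) and Trim55 (-0.025) by genotype, and Fbxo40 by genotype in inactive mice (-0.0077). Leaving out 1 mouse gave ranges crossing 0 for Fbxo40 by genotype in inactive mice (-0.048 to 0.071), Cdkn1a with activity (-0.028 to 0.16), Foxo1 with activity (-0.10 to 0.010) and Trim54 by genotype (-0.0018 to 0.11). The causes were not tested. With 3 mice per group, the spread between mice exceeded the counting error for all 10 genes, and counting error was largest for Foxo3 (10.3% of its mean).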
